A study of Mus musculus with 17 samples.

Results

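Vegfa, Vegfb, Vegfc, Hbegf, Pdgfa, Pdgfb, Thbs1, Flt1, Nrp1 and Nrp2 are 10 genes for angiogenic growth factors, an inhibitor of angiogenesis and receptors. They were taken by symbol from a count table of 55401 Ensembl mouse gene identifiers, and each symbol matched 1 identifier. Their RNA was followed in 17 libraries of mouse bone marrow-derived macrophages, which are macrophages grown in culture from marrow precursors. The study set medium conditioned by B16F10 cells, a mouse melanoma line, with added KCl or NaCl against the same medium without added salt.

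The libraries formed 6 groups. C57BL/6J cells in conditioned medium with KCl (3 libraries) or with NaCl (2 libraries) had the salt at a final 40 mM. Cells of the genotype Lyz2-Cre-Kcnj2f/f (3 libraries, here the knockout) and of the genotype Kcnj2f/f without the driver (3 libraries, here the floxed cells) were all in conditioned medium with isotonic KCl. C57BL/6J cells in conditioned medium alone (3 libraries) were the reference for both salts, and C57BL/6J control cells (3 libraries) were the reference for conditioned medium. Treatment lasted 6 h. Every group except the control thus had conditioned medium, and every floxed-allele group had KCl as well. Kcnj2 encodes an inward-rectifier potassium channel, and the Lyz2 promoter drives Cre in myeloid cells. The sources used here do not give how the medium was made isotonic, its KCl concentration or what the control cells received, and no floxed-allele cells without KCl were analysed here. Strain and tonicity therefore cannot be told apart where a floxed group is set against a C57BL/6J group. The labels do not say if the libraries of a group had separate mice or cultures behind them, so a p-value here weighs a difference against a spread between libraries that may be technical.

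VEGF-A drives the growth of blood vessels by binding the receptor tyrosine kinases VEGFR1, the product of Flt1, and VEGFR2 on endothelial cells, with neuropilins as co-receptors. PDGFs recruit pericytes and fibroblasts to new vessels, HB-EGF is a membrane-anchored ligand of the EGF receptor that is released by shedding, and thrombospondin-1 inhibits vessel growth through CD36 and CD47. Macrophages in tumours are a known source of several of these factors.

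The promoters of 4 of these genes are shown because Pdgfa and Nrp2 had the largest fold changes among the 10 genes, and Vegfa and Vegfc are paralogous ligands called in opposite directions with KCl. RefSeq windows of 300 bases, 250 before and 50 after an annotated start on build GRCm38.p6, were matched by symbol for 7 of the 10 genes, with 9 entries. No window was taken for Hbegf, Pdgfb and Thbs1, so their promoters were not examined. Each sequence is written 5′ to 3′ on the strand of its gene, and capitals mark GC boxes, the letters GGGCGG on either strand.
Vegfa, chr17:46032328-46032627, minus strand: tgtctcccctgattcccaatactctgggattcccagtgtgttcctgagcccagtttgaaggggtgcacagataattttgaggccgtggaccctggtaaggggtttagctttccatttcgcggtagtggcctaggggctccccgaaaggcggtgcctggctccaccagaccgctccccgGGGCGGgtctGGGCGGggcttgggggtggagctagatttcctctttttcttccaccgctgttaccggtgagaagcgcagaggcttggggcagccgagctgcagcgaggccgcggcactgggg
Vegfc, chr8:54077282-54077581, plus strand: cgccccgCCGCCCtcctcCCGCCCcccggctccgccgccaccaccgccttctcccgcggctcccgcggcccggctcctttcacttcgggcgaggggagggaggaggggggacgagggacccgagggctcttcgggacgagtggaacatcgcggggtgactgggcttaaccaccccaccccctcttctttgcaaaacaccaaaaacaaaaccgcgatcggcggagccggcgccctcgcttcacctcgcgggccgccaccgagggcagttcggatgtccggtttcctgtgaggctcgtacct
Pdgfa, chr5:138994895-138995194, minus strand: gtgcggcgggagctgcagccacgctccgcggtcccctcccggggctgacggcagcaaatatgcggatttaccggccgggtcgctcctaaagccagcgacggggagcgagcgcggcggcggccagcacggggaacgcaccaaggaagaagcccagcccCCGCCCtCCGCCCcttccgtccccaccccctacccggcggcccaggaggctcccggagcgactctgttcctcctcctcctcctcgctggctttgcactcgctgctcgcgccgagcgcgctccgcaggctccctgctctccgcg
Nrp2, chr1:62703067-62703366, plus strand: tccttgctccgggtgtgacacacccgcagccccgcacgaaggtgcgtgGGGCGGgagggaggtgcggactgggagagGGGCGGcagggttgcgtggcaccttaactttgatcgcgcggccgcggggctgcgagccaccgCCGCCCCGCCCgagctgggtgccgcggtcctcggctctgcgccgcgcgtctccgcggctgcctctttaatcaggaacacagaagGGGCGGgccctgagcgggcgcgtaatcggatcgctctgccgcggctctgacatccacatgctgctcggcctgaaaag
GC boxes numbered 2 in the Vegfa window, 2 in the Vegfc window, 2 in the Pdgfa window and 5 in the Nrp2 window, where a pair of them shares a base. At least 1 GC box was in 35.7% of all 32851 promoter windows of the same length. The core letters of a hypoxia response element, ACGTG or GCGTG on either strand, occurred 2 times in the Nrp2 window, 1 time in the Pdgfa window and not in the Vegfa and Vegfc windows shown, against 43.8% of all windows with a match. The second Vegfa entry, chr17:46025114-46025413, held 2 of these cores. The NFAT core TGGAAA on either strand was in the Vegfa window shown, in the second Pdgfa entry, chr5:138994232-138994531, and in 21.4% of all windows. A kappaB site was in the same Vegfa window, in the Flt1 window and in 4.51% of all windows. The AP-1 motif TGANTCA on either strand was in none of the 9 entries and in 7.81% of all windows. GC boxes, hypoxia cores and the other motifs were counted separately, whether or not they overlapped. These matches describe letters only.

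The deposited values were raw counts of reads per gene. Library totals ran from 13503869 to 19391623 counts. Levels below are CPM, counts per 1000000 counts of a library, after scaling by edgeR's trimmed mean of M values (TMM), and a fold change was called at an adjusted p under 0.05 in edgeR's quasi-likelihood test with Benjamini-Hochberg adjustment over all genes tested. Every one of the 10 genes passed the filter on low counts in every fit. The lowest count of any of them in a library was 23, for Flt1 in KCl library 1. Because the samples were bulk RNA, fewer cells of a type and less RNA per cell cannot be told apart.

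Per kilobase of exon, Nrp2 and Thbs1 RNA were above the other 8 genes in every group. With KCl, Nrp2 averaged 71.1 ± 9.79 CPM per kb and Thbs1 63.0 ± 6.4 (SD, n = 3 each), which overlapped within 1 SD. Pdgfa followed at 25.8 ± 3.79 CPM per kb, clear of Vegfb at 15.1 ± 5.49 and Nrp1 at 12.3 ± 7.45, which overlapped each other. Vegfc at 7.50 ± 0.958, Pdgfb at 7.05 ± 0.123 and Vegfa at 6.41 ± 0.406 formed a close set. Hbegf at 1.26 ± 0.442 and Flt1 at 0.137 ± 0.0305 CPM per kb were the lowest. The order at the top differed between conditioned medium and control: Nrp2 at 74.8 ± 4.27 and Thbs1 at 39.0 ± 1.53 CPM per kb in conditioned medium, against Nrp2 at 17.9 ± 1.00 and Thbs1 at 94.8 ± 6.45 CPM per kb in control cells (SD, n = 3 each). Pdgfa was below Pdgfb, Vegfb and Vegfa in conditioned medium alone, where Pdgfa had 5.83 ± 0.361 CPM per kb and Pdgfb 10.5 ± 0.803 (SD, n = 3 each). Flt1 was the lowest in all 6 groups.

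**Figure D1:**
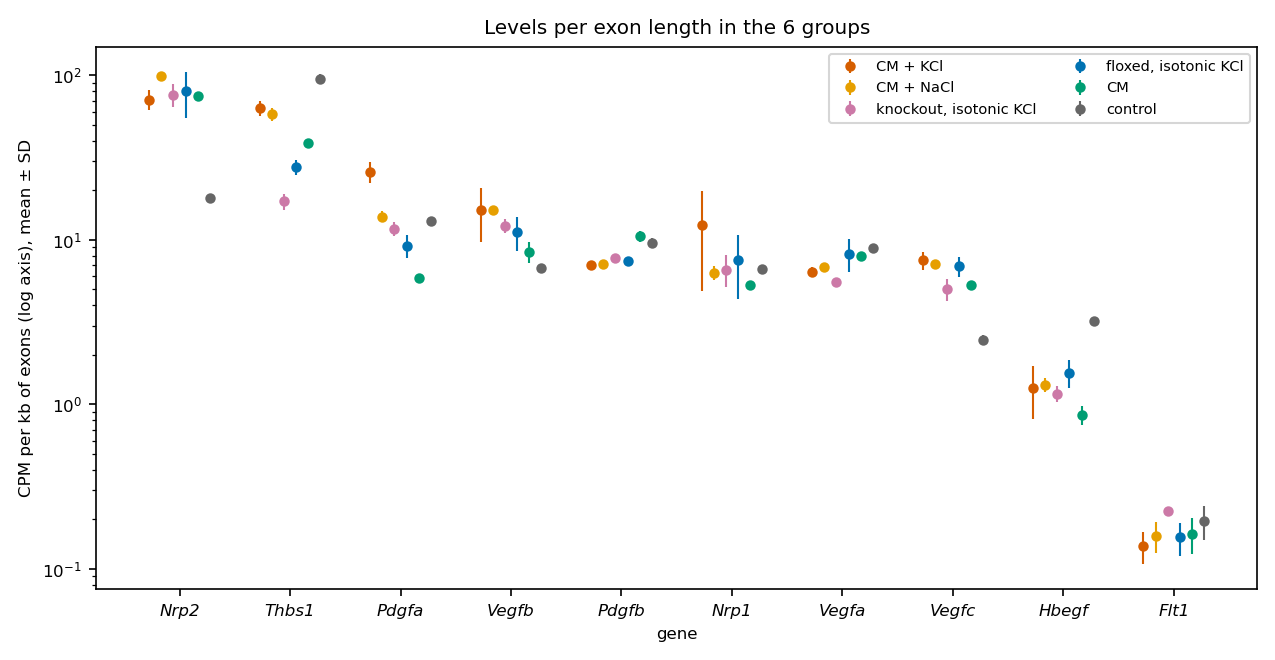
Group mean level of each gene in CPM per kilobase of exons on a log axis (points, means; bars, SD; 3 libraries a group, 2 for NaCl), with genes ordered by the average of their 6 group means and CM standing for conditioned medium. Nrp2 and Thbs1 lie at the top and Flt1 at 0.137 to 0.226 CPM per kb, and the control group has the lowest Nrp2 point and the highest Thbs1 point.

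Set against conditioned medium alone, KCl came with more RNA for most of the ligands and for Thbs1. Of the 10 genes, 6 rose: Pdgfa (2.14), Nrp1 (1.19), Vegfb (0.84), Thbs1 (0.68), Hbegf (0.56) and Vegfc (0.50, all log2 fold changes). Pdgfb (−0.59) and Vegfa (−0.32) fell, and Flt1 and Nrp2 were not called. Across all 14519 genes tested in that fit, 26.6% rose and 27.4% fell. The median log2 fold change was 0.53 over the 10 genes, beside −0.01 over all genes tested.

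NaCl at the same concentration also came with more RNA for several ligands. Of the 10 genes, 5 rose: Pdgfa (1.25), Vegfb (0.85), Thbs1 (0.58), Vegfc (0.44) and Nrp2 (0.42), while Pdgfb (−0.57) fell. The background was 13.7% risen and 14.9% fallen, and the median log2 fold change was 0.43 over the 10 genes, beside −0.01 over all genes. Vegfa, Hbegf, Flt1 and Nrp1 were not called. The KCl and NaCl comparisons share their conditioned-medium libraries, and the NaCl group holds only 2 libraries. Without NaCl library 2, 3 of the 10 genes were called instead of 6.

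Tested directly, KCl and NaCl differed in 2 of the 10 genes. Pdgfa was higher with KCl by 0.89 ± 0.12 (log2, SE; adjusted p = 0.00079) and Nrp2 was lower with KCl (log2 fold change −0.50 ± 0.11, adjusted p = 0.00511, edgeR). Of all genes, 15.4% were called higher with KCl and 16.2% lower, and the medians were −0.01 over the 10 genes and −0.04 over all genes. Neither call held when the KCl and NaCl libraries were fitted without the other groups (Pdgfa 0.89, adjusted p = 0.0668, and Nrp2 −0.49, adjusted p = 0.0844, folds of nearly the same size), where 8 genes of the whole table were called instead of 4591. The other 8 genes had adjusted p between 0.0741 for Nrp1 and 0.997 for Vegfb.

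Conditioned medium itself, set against control cells, came with a different set. Nrp2 (2.06) and Vegfc (1.09) rose, while Hbegf (−1.89), Thbs1 (−1.29) and Pdgfa (−1.16) fell (log2 fold changes). Vegfa, Vegfb, Pdgfb, Flt1 and Nrp1 were not called. Over all genes 27.2% rose and 26.4% fell, and the median log2 fold change was −0.22 over the 10 genes and −0.04 over all genes. These calls use the same conditioned-medium libraries as the salt comparisons, now on the other side of the contrast.

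Between knockout and floxed cells, both in isotonic KCl, none of the 10 genes was called by edgeR's quasi-likelihood test with Benjamini-Hochberg adjustment, whereas 2 were called lower, Thbs1 (log2 fold change −0.69, adjusted p = 0.00013) and Vegfa (−0.45, adjusted p = 0.00424), once the length slope of each library, described below, was a covariate. At an unadjusted p under 0.05 there were 3, namely Thbs1 (log2 fold change −0.68, adjusted p = 0.198), Vegfa (−0.57, adjusted p = 0.519) and Vegfc (−0.46, adjusted p = 0.772), each lower in all 3 knockout libraries than in any floxed library. Pdgfa and Flt1 were higher in all 3 knockout libraries than in any floxed library. Of all genes tested, 6.76% were lower and 4.46% higher without overlap in this way. DESeq2 called 1 of the 10, Thbs1 (−0.67, adjusted p = 0.006). In the whole table of 12782 genes tested, edgeR called 1 gene higher (0.00782%) and 1 lower (0.00782%), with 716 at an unadjusted p under 0.05, while DESeq2 called 177 (42 higher, 0.329%, and 135 lower, 1.06%) and edgeR with the length slope called 549 higher (4.3%) and 758 lower (5.93%). The medians were −0.12 over the 10 genes and −0.0027 over all genes.

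Floxed cells in isotonic KCl, set against C57BL/6J cells in conditioned medium, had higher Hbegf (0.84) and Pdgfa (0.65) and lower Pdgfb (−0.51) and Thbs1 (−0.50, log2 fold changes), so 4 of the 10 genes were called, beside 8.2% of all genes higher and 7.09% lower. All 4 calls were lost when those 2 groups were fitted alone, with adjusted p between 0.0626 and 0.0756 at folds of similar size (Hbegf 0.87, Pdgfa 0.69, Pdgfb −0.48 and Thbs1 −0.47). C57BL/6J cells with KCl, set against the floxed cells, had higher Pdgfa (1.49) and Thbs1 (1.19) and lower Vegfa (−0.37), beside 12.3% of all genes higher and 15.4% lower. The medians over the 10 genes were 0.24 and 0.02, beside −0.014 and 0.0034 over all genes.

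**Figure D2:**
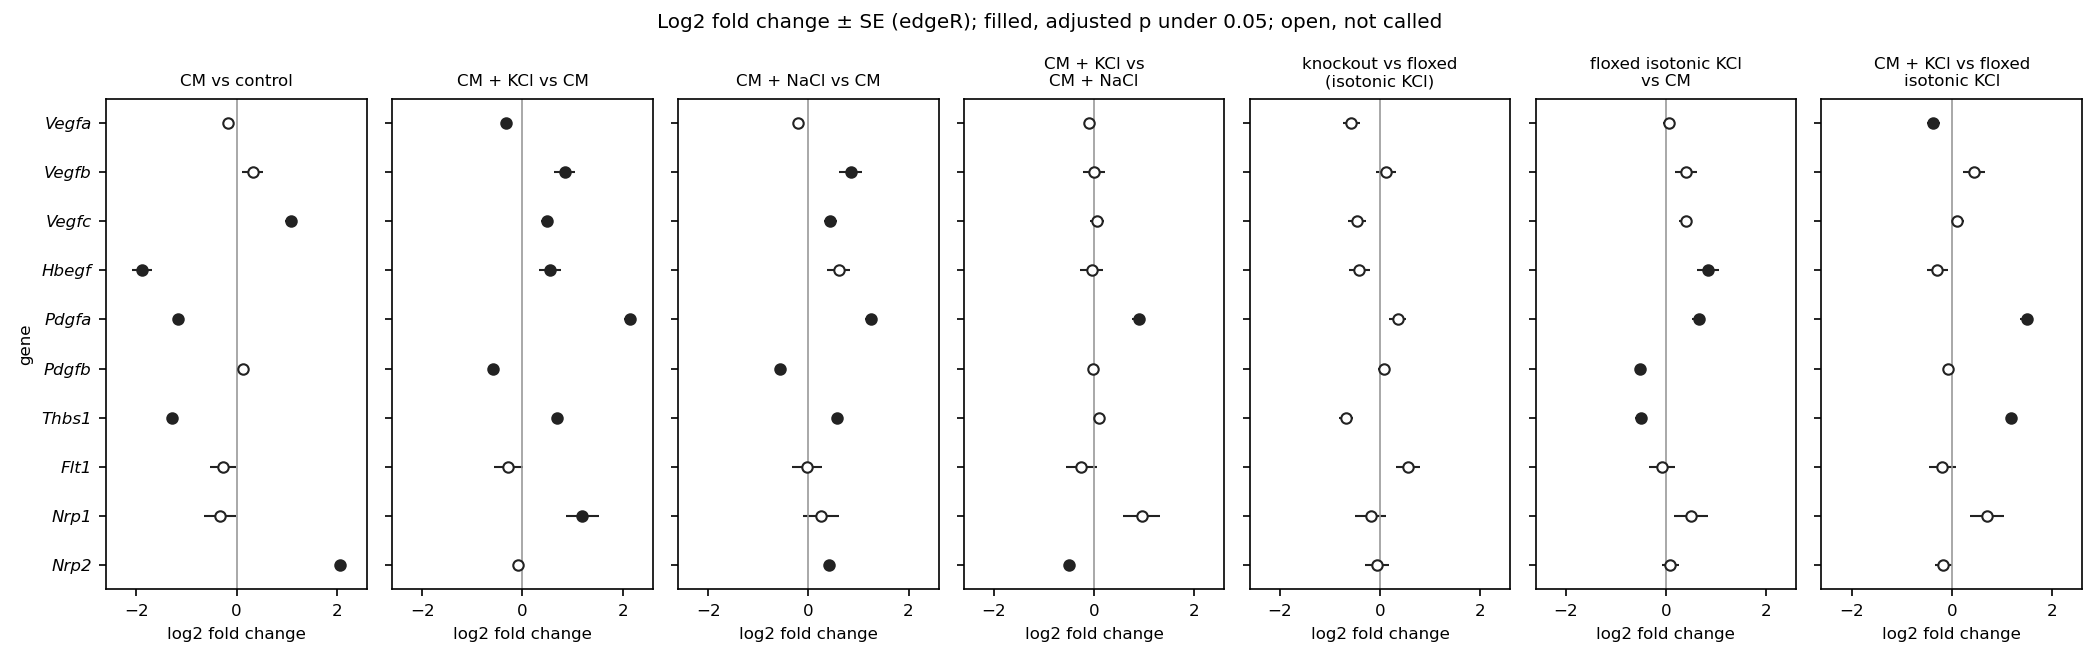
Log2 fold change of each gene in the 7 comparisons (points, edgeR estimates; bars, SE; filled points, adjusted p under 0.05; each panel title names the compared groups; CM, conditioned medium). Pdgfa moves furthest in the panel of KCl against conditioned medium (2.14), Nrp2 furthest in the panel of conditioned medium against control (2.06), and the knockout panel holds open points only.

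How libraries were scaled moved all folds together. Scaling by total counts in place of TMM shifted the median log2 fold change of all genes to −0.37 for conditioned medium against control, −0.22 for KCl against conditioned medium, −0.18 for KCl against NaCl and −0.18 for floxed cells against conditioned medium. It lowered the share of called genes that were higher to 24.9% (50.8% with TMM), 32.6% (49.3%), 30.1% (48.6%) and 26.1% (53.6%) in these 4 comparisons, and to 37.0% (48.0%) for NaCl against conditioned medium. TMM factors were 1.31 to 1.32 in control libraries and 0.831 to 1.04 in the other libraries. No call on the 10 genes changed sign under total-count scaling, but Vegfc and Hbegf lost their calls in KCl against conditioned medium (adjusted p = 0.0834 and 0.226). In that comparison Nrp2 gained a call as lower (−0.29, adjusted p = 0.0456), so 4 of the 10 genes were higher and 3 lower, beside 18% and 37.2% of all genes. Vegfc and Nrp2 lost their calls in NaCl against conditioned medium (adjusted p = 0.0797 and 0.0571).

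Vegfa, the principal growth factor for vascular endothelium, was lower with both salts than in conditioned medium alone and had its lowest levels in knockout cells. Vegfa had 25.45, 28.35 and 28.6 CPM in the KCl libraries and 29.1 and 29.3 CPM in the NaCl libraries. Knockout libraries had 22.4, 24.0 and 24.5 CPM of Vegfa, against 44.4, 30.9 and 30.6 CPM in floxed libraries. Conditioned-medium libraries had 34.2, 33.3 and 34.5 CPM, against 37.99, 36.1 and 39.8 CPM in control libraries. KCl and NaCl libraries lay below the conditioned-medium libraries, knockout below floxed and conditioned medium below control without overlap, and floxed library 1 stood apart from the other 2 floxed libraries. Such separation was common. Of all genes, 27.6% were higher and 29.1% lower without overlap with KCl, 29.5% and 31.2% with NaCl, each against conditioned medium. The shares were 33.9% and 34.2% in conditioned medium against control, and 24.4% and 26.8% for KCl against NaCl. Across strains, 13.2% were higher and 16.1% lower in floxed cells against conditioned medium, and 14.2% and 16.2% for KCl against floxed cells. These shares hold beside separations of the same groups for other genes below. Separations of more than 2 groups at once were not counted over all genes. Vegfa fell with KCl (log2 fold change −0.32 ± 0.08 SE, adjusted p = 0.00533), a call that ended when the length slope was added to the fit (−0.20, adjusted p = 0.318). With NaCl it was −0.21 ± 0.09 (adjusted p = 0.103), called with the slope as a covariate (−0.23, adjusted p = 0.0397) and with those 2 groups alone (−0.21, adjusted p = 0.0482). Between KCl and NaCl it was −0.11 ± 0.09 (adjusted p = 0.397). Knockout against floxed was −0.57 ± 0.17 (adjusted p = 0.519), and Vegfa was called lower there with the covariate (−0.45, adjusted p = 0.00424). Against floxed cells the KCl value was −0.37 ± 0.12 (adjusted p = 0.0382), but −0.16 (adjusted p = 0.193) without floxed library 1, and the call was also lost without any 1 of KCl libraries 1, 2 and 3 (adjusted p = 0.152, 0.0678 and 0.0598), with a replicate block (0.0537), with total-count scaling (0.0555) and with those 2 groups alone (0.271).

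Vegfb, a ligand of VEGFR1 linked to fatty acid transport in endothelium, rose with both salts. Vegfb had 24.2, 15.5 and 33.1 CPM in KCl libraries and 23.9 and 24.65 CPM in NaCl libraries. In knockout libraries it had 17.9, 19.1 and 21.5 CPM, against 21.75, 13.5 and 18.5 CPM in floxed libraries. Conditioned-medium libraries had 14.4, 11.4 and 14.9 CPM, against 10.5, 11.1 and 10.9 CPM in control libraries. The KCl libraries spread more widely than any other group, with library 2 just above the conditioned-medium range and library 3 at more than any other library of the 17. The log2 fold change was 0.84 ± 0.21 with KCl (adjusted p = 0.00445), or 0.56 (adjusted p = 0.00432) without KCl library 3, and 1.54 (adjusted p = 0.000327) with the length slope as a covariate. With NaCl it was 0.85 ± 0.23 (adjusted p = 0.0143), a call that was lost without NaCl library 1 (adjusted p = 0.0698), NaCl library 2 (0.0996) or conditioned-medium library 2 (0.0572). Against control, conditioned medium was at 0.32 ± 0.21 (adjusted p = 0.230), called with those 2 groups alone (0.32, adjusted p = 0.018) and with the length slope as a covariate (0.40, adjusted p = 0.0378).

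Vegfc, the ligand of VEGFR3 that drives the growth of lymphatic vessels, was lowest in control cells. It had 19.3, 15.7 and 20.1 CPM with KCl and 18.1 and 16.98 CPM with NaCl. Knockout libraries had 10.7, 14.3 and 11.9 CPM of Vegfc, against 19.2, 14.5 and 17.3 CPM in floxed libraries. Conditioned-medium libraries had 13.4, 12.05 and 13.4 CPM, against 5.55, 6.27 and 6.32 CPM in control libraries. Every library in conditioned medium, with or without salt, was above every control library, and the 3 knockout libraries lay below the 3 floxed libraries by a small margin. Vegfc rose in conditioned medium by 1.09 ± 0.12 (log2, adjusted p = 6.09e-06) and rose further with KCl by 0.50 ± 0.12 (adjusted p = 0.0031). The NaCl rise of 0.44 ± 0.13 (adjusted p = 0.021) was lost without NaCl library 1 (adjusted p = 0.142), NaCl library 2 (0.0892) or conditioned-medium library 2 (0.0789). KCl and NaCl differed by 0.06 ± 0.13 (adjusted p = 0.768).

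Hbegf, the EGF-family ligand, had its highest level in control cells. Its level was 6.18, 3.92 and 8.19 CPM in KCl libraries and 5.92 and 6.805 CPM in NaCl libraries. In knockout libraries Hbegf had 5.08, 5.48 and 6.29 CPM, against 7.61, 6.015 and 8.87 CPM in floxed libraries. Conditioned-medium libraries had 3.79, 3.935 and 4.83 CPM, against 15.2, 15.2 and 16.01 CPM in control libraries. All 14 libraries with conditioned medium were below all control libraries, and KCl library 2 lay inside the conditioned-medium range. In conditioned medium Hbegf fell relative to control (log2 fold change −1.89 ± 0.20, adjusted p = 2.81e-06), the largest fall among the 10 genes in that comparison. The KCl rise of 0.56 ± 0.22 (adjusted p = 0.0444) was lost without KCl library 1 (adjusted p = 0.0887), KCl library 3 (0.225), conditioned-medium library 1 (0.126) or conditioned-medium library 2 (0.12), and with the KCl and conditioned-medium groups alone (0.122). With the length slope as a covariate it was 1.302 (adjusted p = 0.00138). NaCl gave 0.61 ± 0.23 (adjusted p = 0.0687), which was called by DESeq2, with no filter on low counts, with those 2 groups alone, with same-numbered libraries as a replicate block and with that covariate (adjusted p between 0.00839 and 0.0474). In floxed cells against conditioned medium it was 0.84 ± 0.22 (adjusted p = 0.0177), lost without floxed library 3 (0.0784), conditioned-medium library 1 (0.0698) or conditioned-medium library 2 (0.0693) and with total-count scaling (0.0743).

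Pdgfa, which encodes the A chain of PDGF and acts on PDGF receptor alpha, had the largest rise with KCl among the 10 genes. Pdgfa had 92.9, 79.3 and 69.4 CPM with KCl and 40.7 and 45.4 CPM with NaCl. Knockout libraries had 39.6, 37.0 and 32.8 CPM, against 23.35, 31.9 and 30.7 CPM in floxed libraries. Conditioned-medium libraries had 17.2, 19.4 and 17.9 CPM of Pdgfa, against 42.0, 42.0 and 37.3 CPM in control libraries. The KCl group overlapped no other group, the conditioned-medium group lay below all others, and NaCl libraries were near the control libraries. KCl raised Pdgfa by 2.14 ± 0.12 (log2, adjusted p = 1.43e-08) and NaCl by 1.25 ± 0.12 (adjusted p = 1.01e-05), and both calls held in all settings tried. The excess of KCl over NaCl lost its call with the length slope as a covariate (0.62, adjusted p = 0.166) as well as with those groups alone. C57BL/6J cells with KCl exceeded the floxed cells by 1.49 ± 0.13 (adjusted p = 1.1e-06), floxed cells exceeded conditioned medium by 0.65 ± 0.13 (adjusted p = 0.00473), and knockout against floxed cells was at 0.35 ± 0.16 (adjusted p = 1). In conditioned medium Pdgfa fell relative to control (−1.16 ± 0.11, adjusted p = 1.36e-06).

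An antisense gene, 6330403L08Rik, shares 813 exon bases with Pdgfa, and the sources used here do not say if reads were counted by strand, so reads of the overlap could be credited to either gene. It had 7.32, 5.26 and 7.50 CPM with KCl, against 6.06, 4.92 and 6.11 CPM in conditioned medium. Its fall in conditioned medium was −1.34 ± 0.16 (log2, adjusted p = 9.05e-06), alongside that of Pdgfa, while with KCl it was 0.24 ± 0.17 (adjusted p = 0.264). Thbs1 and Nrp1 also share exon bases with other genes, Gm29233 and Mir1903, which had 3 and 0 counts over all 17 libraries.

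Pdgfb, the B chain of PDGF, which binds both PDGF receptors and recruits pericytes, was lower with both salts. Pdgfb had 29.7, 29.6 and 28.75 CPM with KCl and 29.3 and 29.7 CPM with NaCl. Knockout libraries had 32.8, 32.4 and 31.2 CPM, against 31.25, 30.15 and 30.7 CPM in floxed libraries. In conditioned-medium libraries it had 42.9, 47.6 and 41.1 CPM, against 39.2, 37.97 and 42.9 CPM in control libraries. The 11 libraries with KCl or NaCl lay between 28.75 and 32.8 CPM, below the 6 libraries of conditioned medium alone and control at 37.97 CPM or more. Between floxed cells and conditioned medium, 16.1% of all genes were lower and 13.2% higher without overlap. The share for all these groups at once was not counted. The fall was −0.59 ± 0.09 with KCl (log2, adjusted p = 7.69e-05) and −0.57 ± 0.10 with NaCl (adjusted p = 0.000677), and both calls held in all settings tried. KCl against NaCl was −0.02 ± 0.10 (adjusted p = 0.873), and knockout against floxed 0.07 ± 0.11 (adjusted p = 1). Floxed cells were at −0.51 ± 0.08 against conditioned medium (adjusted p = 0.000778).

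Thbs1, the inhibitor of angiogenesis, spanned a wide range of levels. Thbs1 had 399.5, 410.0 and 338 CPM with KCl and 328 and 375 CPM with NaCl. Knockout libraries had 117.5, 95.2 and 99.6 CPM, against 172, 183 and 147 CPM in floxed libraries. Conditioned-medium libraries had 237, 227 and 246 CPM, against 541, 567 and 618 CPM in control libraries. The groups fell in the order control, both salts, conditioned medium, floxed and knockout, and only the KCl and NaCl ranges overlapped. Of all genes, 16.1% were lower and 13.2% higher without overlap in floxed cells against conditioned medium. For KCl against floxed cells 14.2% were higher and 16.2% lower. In conditioned medium Thbs1 fell relative to control (log2 fold change −1.29 ± 0.09, adjusted p = 4.72e-08), and the salts raised it, KCl by 0.68 ± 0.09 (adjusted p = 3.35e-05) and NaCl by 0.58 ± 0.10 (adjusted p = 0.000739). Those 3 calls held in all settings tried. KCl against NaCl was 0.10 ± 0.10 (adjusted p = 0.45). Floxed cells in isotonic KCl were lower than C57BL/6J cells in conditioned medium (−0.50 ± 0.11, adjusted p = 0.00716). C57BL/6J cells with KCl exceeded the floxed cells by 1.19 ± 0.11 (adjusted p = 1.64e-06). The knockout value of −0.68 ± 0.13 (adjusted p = 0.198, edgeR) was called by DESeq2 and, in edgeR, with the length slope as a covariate (−0.69, adjusted p = 0.00013).

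Fibroblasts also express Thbs1, and fibroblast and pericyte markers were not absent. The summed level of 9 such markers lay between 311 and 482 CPM in KCl libraries and between 498 and 553 CPM in NaCl libraries. In knockout libraries the sum was 181 to 247 CPM, against 254.5 to 508 CPM in floxed libraries. In conditioned medium it was 505 to 559 CPM, against 576 to 711 CPM in control libraries. The sum thus moved with Thbs1 between knockout and floxed and between conditioned medium and control, and against it with KCl. Gene by gene, 1 of the 9 rose and 4 fell with KCl (median log2 fold change 0.04), with Dcn at 70.5 to 85.9 CPM with KCl and 61.5 to 63.4 CPM in conditioned medium. In conditioned medium against control 0 rose and 1 fell (median −0.03), and between knockout and floxed none of the 8 tested was called (median −0.99). None of the 9 markers was at 0 in all libraries, and Col1a1, Col1a2 and Col3a1, which encode fibrillar collagen chains, made up most of the sum in control libraries. Their part in the Thbs1 differences was not tested.

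**Figure D3:**
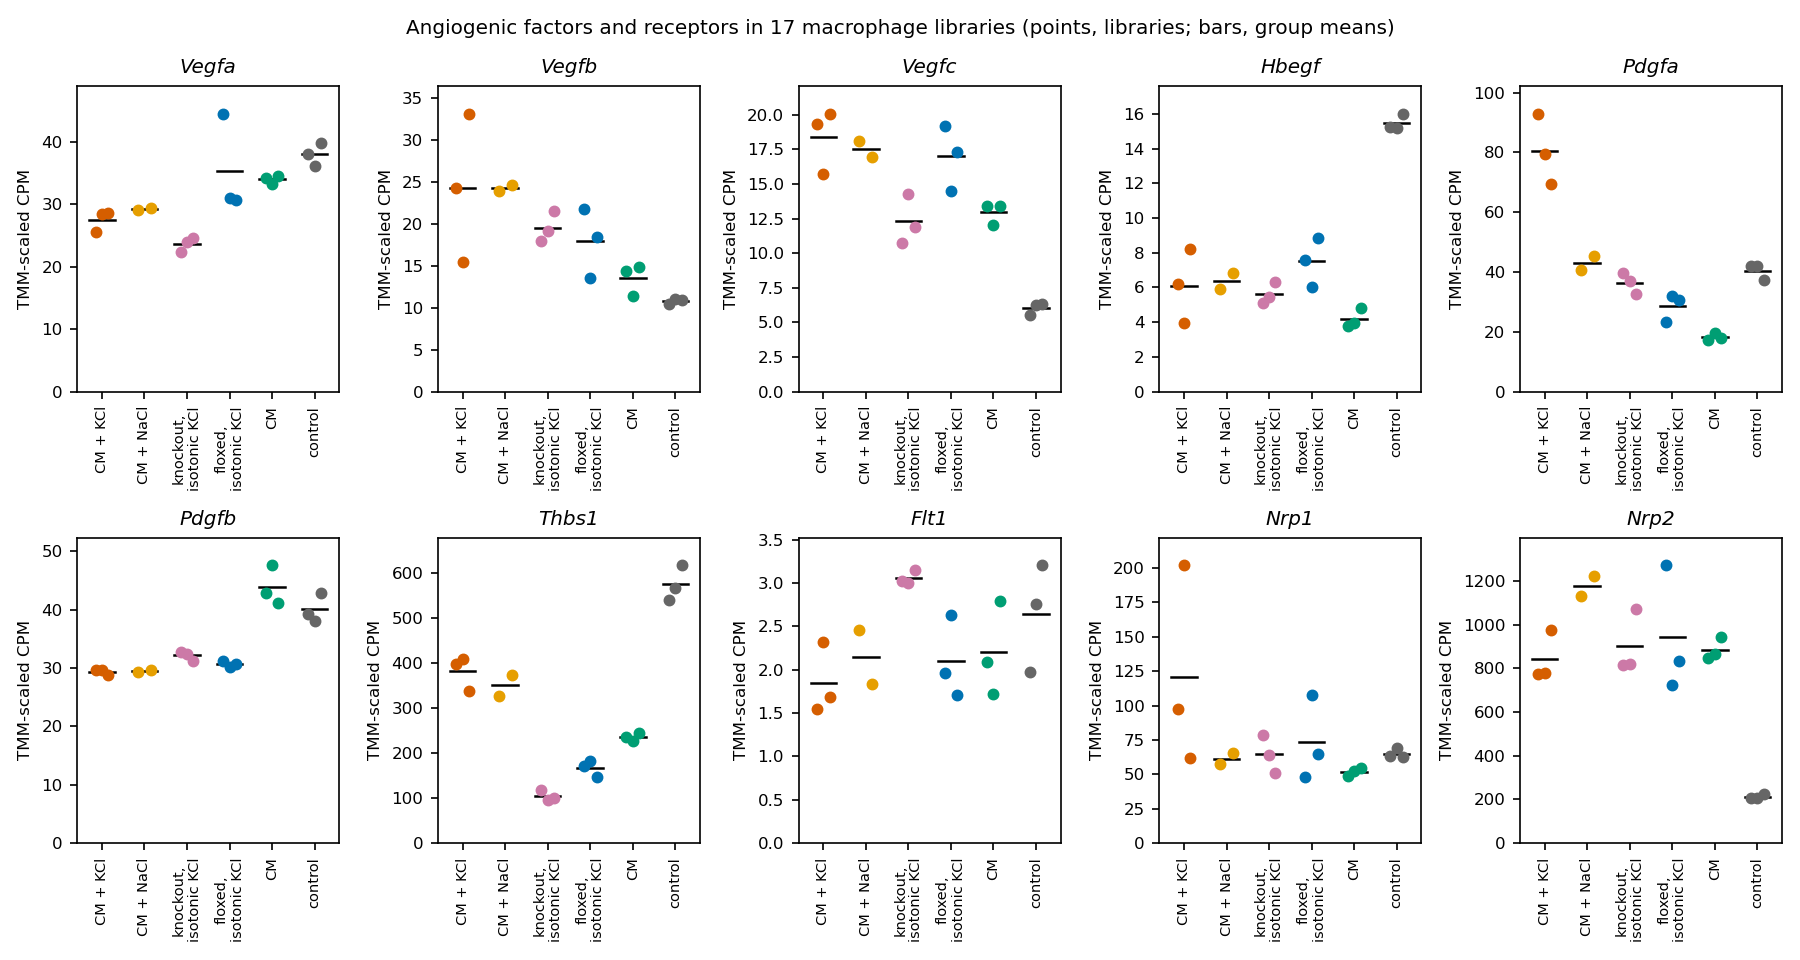
Level of each gene in TMM-scaled CPM in each of the 17 libraries (points, libraries; bars, group means; every axis starts at 0; CM, conditioned medium). Pdgfa with KCl (69.4 to 92.9 CPM) stands clear of all other groups, Nrp1 with KCl spreads between 61.8 and 202 CPM, and Nrp2 in control libraries (204 to 225 CPM) is below every other library.

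Flt1, which encodes VEGFR1, was the scarcest of the 10 RNAs. Flt1 had 1.54, 2.32 and 1.69 CPM with KCl and 2.46 and 1.83 CPM with NaCl. Knockout libraries had 3.02, 2.999 and 3.15 CPM, against 1.96, 2.63 and 1.71 CPM in floxed libraries. Conditioned-medium libraries had 2.085, 1.72 and 2.79 CPM, against 1.97, 2.75 and 3.20 CPM in control libraries. The ranges overlapped in each of these comparisons except knockout against floxed, where the log2 fold change was 0.55 ± 0.24 (adjusted p = 0.928). No comparison called Flt1, and at 76 to 186 counts a group its SE was 0.24 to 0.31 on the log2 scale, so a change of that size was not detectable at this depth. Of the 10 endothelial markers, Vwf had 9.1 to 19.5 CPM over the 17 libraries, Pecam1 1.96 to 15.5 CPM and Kdr, the gene of VEGFR2, 1.4 to 4.54 CPM. These 3 were mostly at or above the level of Flt1, but in conditioned medium Kdr (1.40 to 1.58 CPM) was below Flt1 (1.72 to 2.79 CPM). The endothelial cadherin gene Cdh5 was at 0.0615 to 0.713 CPM. The remaining markers reached at most 2.26 CPM (Esam), 0.931 (Egfl7), 0.537 (Tie1), 0.394 (Emcn) and 0.269 (Tek and Cldn5). Their part in the Flt1 level was not tested.

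Nrp1 and Nrp2, co-receptors for VEGFs and class 3 semaphorins, behaved differently. Nrp1 had 97.6, 202 and 61.8 CPM with KCl and 57.2 and 65.6 CPM with NaCl. Knockout libraries had 78.8, 64.0 and 50.6 CPM of Nrp1, against 48.1, 108 and 64.5 CPM in floxed libraries. Conditioned-medium libraries had 49.0, 52.6 and 54.45 CPM, against 63.2, 69.2 and 62.5 CPM in control libraries. The KCl libraries were above the conditioned-medium libraries, but KCl library 3 was within the range of the NaCl libraries and below the control libraries, and KCl library 2 had more than any other library. The KCl rise was 1.19 ± 0.33 (log2, adjusted p = 0.0104), or 0.61 (adjusted p = 0.00379) without KCl library 2, and with the length slope as a covariate it was 0.0045 (adjusted p = 0.998). Values were 0.25 ± 0.36 with NaCl (adjusted p = 0.669), 0.95 ± 0.37 for KCl against NaCl (adjusted p = 0.0741) and −0.33 ± 0.32 for conditioned medium against control (adjusted p = 0.423). The difference between KCl and NaCl was called with no filter on low counts (0.93, adjusted p = 3.21e-12) and with the stricter filter (0.95, adjusted p = 0.0462), and the fall in conditioned medium was called with no filter (−0.35, adjusted p = 0.0047) and with those 2 groups alone (−0.33, adjusted p = 0.00012).

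Nrp2 RNA had 774, 777 and 976 CPM with KCl and 1129 and 1224 CPM with NaCl. Knockout libraries had 815, 820.1 and 1070.3 CPM of Nrp2, against 1272, 724.5 and 835 CPM in floxed libraries. Conditioned-medium libraries had 848.5, 865 and 943 CPM, against 204, 205 and 225 CPM in control libraries. Every library with conditioned medium had more than every control library, and NaCl libraries were above all KCl libraries and all conditioned-medium libraries. Nrp2 rose in conditioned medium by 2.06 ± 0.10 (log2, adjusted p = 8.47e-10), a call that held in all settings tried. The NaCl rise of 0.42 ± 0.11 (adjusted p = 0.00961) was lost without NaCl library 2 (0.35, adjusted p = 0.128). Nrp2 with KCl was at −0.08 ± 0.10 against conditioned medium (adjusted p = 0.492), or −0.20 (adjusted p = 0.016) without KCl library 3, and 0.33 (adjusted p = 0.0133) with the length slope as a covariate. The lower level with KCl than with NaCl was lost without NaCl library 2 (−0.44, adjusted p = 0.0752) and with that covariate (−0.01, adjusted p = 0.982). Knockout against floxed was −0.06 ± 0.23 (adjusted p = 1).

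Levels of Nrp1 and Nrp2 moved with a property of the libraries in 3 of the groups. In each library the log2 level of genes relative to their mean was regressed on log2 exon length, and the slope is called the length slope. It was −0.0687, −0.0924 and −0.00306 in KCl libraries 1 to 3, and 0.0615 and 0.104 in NaCl libraries 1 and 2. Knockout libraries had −0.134, −0.125 and −0.0225, against 0.1, −0.146 and −0.0815 in floxed libraries. The slope was 0.0366 to 0.0853 in conditioned-medium libraries, against 0.054 to 0.104 in control libraries. Within the KCl, floxed and knockout groups alike, the library with the lowest slope had the most Nrp1, and the library with the highest slope had the least Nrp1 and the most Nrp2 and Vegfb. In conditioned medium Nrp1 went the opposite way, with 48.96, 52.6 and 54.45 CPM at slopes of 0.0366, 0.0621 and 0.0853, and in NaCl libraries it had 57.2 and 65.6 CPM at 0.0615 and 0.104. The groups compared differ in slope, and every KCl library had a lower slope than every conditioned-medium and NaCl library. The part of the slope in the results was tested only by the fits with it as a covariate given above. Slope and KCl cannot be fully told apart in those fits, because the slopes of these groups do not overlap.

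**Figure D4:**
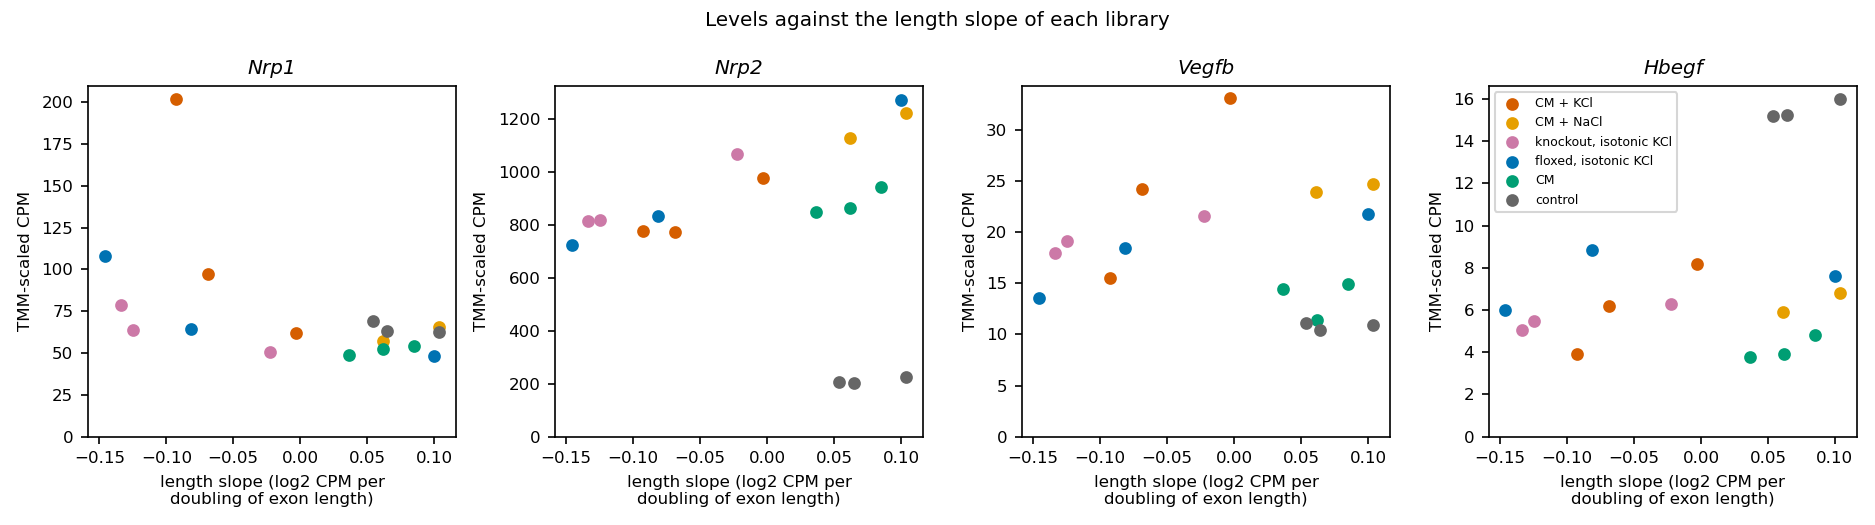
Level of Nrp1, Nrp2, Vegfb and Hbegf in TMM-scaled CPM (vertical axes, from 0) against the length slope of each library, in log2 CPM per doubling of exon length (points, 17 libraries; CM, conditioned medium). Among KCl libraries Nrp1 has 202 CPM at the slope of −0.0924 and 61.8 CPM at −0.00306, while Vegfb has 15.5 and 33.1 CPM at the same slopes.

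Other ligands of the VEGF, PDGF and angiopoietin families and related vascular peptides were followed as a list of 14 genes, of which 13 were tested among C57BL/6J cells. With KCl 3 rose and 2 fell (median log2 fold change 0.11, beside −0.01 over all genes), no larger a share than the 26.6% and 27.4% of all genes. With NaCl 3 rose and 1 fell (−0.14), beside 13.7% and 14.9% of all genes, and in conditioned medium against control 2 rose and 7 fell (−0.97, beside −0.04), with 27.2% and 26.4% of all genes. The KCl median changed sign, to −0.10 under total-count scaling (−0.22 over all genes) and to −0.18 with the length slope as a covariate (−0.01 over all genes). That scaling had 2 risen and 3 fallen, beside 18% and 37.2% of all genes. The covariate had 1 risen and 1 fallen, beside 14.5% and 15.7%. The median for conditioned medium against control stayed negative (−1.31 and −1.01, beside −0.37 and −0.04 over all genes). Pdgfc, a further PDGF-receptor ligand, averaged 16.98 ± 2.19 CPM with KCl and 7.18 ± 0.947 CPM in conditioned medium (SD, n = 3 each), a rise of 1.24 ± 0.14 (log2, adjusted p = 6.32e-06). NaCl raised it too, by 1.37 ± 0.14 (adjusted p = 1.73e-05), and in conditioned medium it fell against control (log2 fold change −1.72 ± 0.13, adjusted p = 1.02e-07). Edn1, which encodes the vasoconstrictor endothelin-1, averaged 5.62 ± 1.17 CPM with KCl and 13.2 ± 0.599 CPM in conditioned medium (SD, n = 3 each) and fell (−1.25 ± 0.19, adjusted p = 0.000117), whereas conditioned medium raised it over control (2.68 ± 0.21, adjusted p = 1.05e-07). Adm, which encodes the vasodilator adrenomedullin, rose with KCl (0.63 ± 0.14, adjusted p = 0.00224) and with NaCl (0.92 ± 0.15, adjusted p = 0.0006). Hgf, which encodes hepatocyte growth factor, fell in conditioned medium against control (−1.73 ± 0.15, adjusted p = 3.68e-07).

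Of 9 further receptors for these ligands, 6 were tested. With KCl 2 rose and 0 fell (26.6% and 27.4% of all genes), with NaCl 3 rose and 0 fell (13.7% and 14.9%), and 4 of the 6 were lower with KCl than with NaCl (16.2% of all genes), or 0 with the length slope as a covariate (0.565%). Under total-count scaling 0 rose and 1 fell with KCl, beside 18% and 37.2% of all genes. Met, the receptor of hepatocyte growth factor, averaged 127 ± 4.77 CPM in conditioned medium and 10.2 ± 0.295 CPM in control cells (SD, n = 3 each), a rise of 3.63 ± 0.08 (log2, adjusted p = 6.22e-13), opposite in sign to its ligand. KCl raised Met by a further 0.38 ± 0.07 (adjusted p = 0.00054) and NaCl by 0.80 ± 0.08 (adjusted p = 8.31e-06), and KCl was lower than NaCl (−0.42 ± 0.08, adjusted p = 0.00273). Pdgfra, the receptor of the PDGF A chain, averaged 12.9 ± 0.851 CPM with KCl (SD, n = 3) and 17.6 ± 0.420 CPM with NaCl (SD, n = 2), lower with KCl (−0.46 ± 0.13, adjusted p = 0.02). The receptor list shares Pdgfra and Pdgfrb with the fibroblast and pericyte markers and Kdr, Tek and Tie1 with the endothelial markers.

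The list around HB-EGF held 15 genes for EGF-family ligands, their receptors and the machinery that sheds them, with 10 tested. With KCl 4 rose and 1 fell (26.6% and 27.4% of all genes), and with NaCl 6 rose and 0 fell (13.7% and 14.9%). In conditioned medium against control 4 rose and 2 fell (27.2% and 26.4% of all genes). Total-count scaling turned that split to 2 higher and 3 lower, beside 15.1% and 45.6% of all genes. With KCl that scaling gave 3 higher and 2 lower, beside 18% and 37.2% of all genes. Adam17, the main sheddase of HB-EGF, averaged 622 ± 11.8 CPM in conditioned medium and 226 ± 3.97 CPM in control cells (SD, n = 3 each), a rise of 1.46 ± 0.07 (log2, adjusted p = 5.96e-10). Rhbdf2, which encodes iRhom2, the protein that brings ADAM17 to the cell surface, rose with it (1.89 ± 0.09, adjusted p = 1.07e-09), while Adam10 fell (−0.54 ± 0.07, adjusted p = 1.46e-05) and Hbegf itself fell. Cd9, a tetraspanin that binds pro-HB-EGF, averaged 1023 ± 64.7 CPM with KCl and 514 ± 15.4 CPM in conditioned medium (SD, n = 3 each), a rise of 0.98 ± 0.07 (adjusted p = 1.58e-07), and rose with NaCl by 0.70 ± 0.08 (adjusted p = 2.3e-05).

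Thrombospondin relatives and receptors numbered 10, with 9 tested, of which 3 rose and 2 fell with KCl, near the 26.6% and 27.4% of all genes. With NaCl 3 rose and 1 fell (13.7% and 14.9% of all genes), and in conditioned medium against control 3 rose and 1 fell (27.2% and 26.4%). Under total-count scaling the latter became 3 and 5, beside 15.1% and 45.6% of all genes. Comp, the cartilage member of the thrombospondin family, averaged 10.7 ± 0.967 CPM with KCl and 2.18 ± 0.357 CPM in conditioned medium (SD, n = 3 each), a rise of 2.29 ± 0.16 (log2, adjusted p = 1.61e-07). The thrombospondin receptor Cd36 rose with KCl (0.49 ± 0.08, adjusted p = 0.000154) and with NaCl (0.65 ± 0.09, adjusted p = 9.9e-05), and the integrin subunit gene Itgav rose with KCl (0.52 ± 0.07, adjusted p = 3.03e-05). Cd47, the other main receptor, fell with NaCl (−0.78 ± 0.10, adjusted p = 9.32e-05). In conditioned medium against control Thbs2 fell (−0.95 ± 0.12, adjusted p = 1.06e-05) as Thbs1 did, while Cd47 (0.78 ± 0.09, adjusted p = 7.44e-06) and Tgfb1, whose latent product thrombospondin-1 activates (0.83 ± 0.11, adjusted p = 2.65e-05), rose.

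Semaphorins, which share the neuropilins with VEGFs, and plexins made up 21 genes, 20 of them tested. With KCl 2 rose and 5 fell, below the 26.6% and 27.4% of all genes, and with NaCl 2 rose and 4 fell (13.7% and 14.9% of all genes). With KCl 5 were lower and 0 higher than with NaCl (16.2% and 15.4% of all genes), or 1 and 0 with the length slope as a covariate (0.565% and 0.42%). Sema4a averaged 28.1 ± 2.78 CPM with KCl and 126 ± 2.72 CPM in conditioned medium (SD, n = 3 each), and fell (log2 fold change −2.18 ± 0.09, adjusted p = 1.23e-09), and was lower with KCl than with NaCl (−1.25 ± 0.10, adjusted p = 1.6e-05). Sema4c fell with KCl (−2.61 ± 0.18, adjusted p = 1.44e-07), whereas Sema4b rose with KCl (1.25 ± 0.16, adjusted p = 2.06e-05) and with NaCl (1.58 ± 0.17, adjusted p = 1.75e-05). Both Sema4a (1.70 ± 0.09, adjusted p = 1.51e-09) and Sema4c (1.79 ± 0.16, adjusted p = 7.22e-07) had risen in conditioned medium against control. There 6 of the list rose and 4 fell (27.2% and 26.4% of all genes), or 4 and 8 under total-count scaling (15.1% and 45.6%).

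Vegfa is a textbook target of hypoxia-inducible factors, so 20 other regulators and targets of these factors were listed, all of them tested. In conditioned medium against control 16 rose and 2 fell, beside the 27.2% and 26.4% of all genes, while Vegfa was not called (−0.17 ± 0.08, adjusted p = 0.098). The median log2 fold change of the list was 0.93. Under total-count scaling 12 of the list were higher and 4 lower (median 0.59), beside 15.1% and 45.6% of all genes. Vegfa fell in that comparison with total-count scaling (−0.50, adjusted p = 0.000286), with the stricter filter (−0.20, adjusted p = 0.0406) and with those 2 groups alone (−0.17, adjusted p = 0.0345). Ndrg1, a stress-induced gene, averaged 76.4 ± 4.57 CPM in conditioned medium and 18.6 ± 0.848 CPM in control cells (SD, n = 3 each), a rise of 2.03 ± 0.09 (adjusted p = 2.13e-10), and Bnip3, a mitophagy gene, rose by 1.77 ± 0.10 (adjusted p = 3.24e-09), while Mxi1, an antagonist of MYC, fell (−2.31 ± 0.11, adjusted p = 5.3e-10). With KCl the list split, 9 risen and 8 fallen (median −0.01), beside 26.6% and 27.4% of all genes. Under total-count scaling the split was 2 and 10, beside 18% and 37.2% of all genes. With the length slope as a covariate it was 3 and 5, beside 14.5% and 15.7%. The prolyl hydroxylase gene Egln1 (−0.71 ± 0.09, adjusted p = 3.37e-05) and Ndrg1 (−0.50 ± 0.08, adjusted p = 0.000217) fell and the histone demethylase gene Kdm3a rose (0.59 ± 0.09, adjusted p = 0.000109). NaCl moved 3 up and 3 down, near the 13.7% and 14.9% of all genes, with Hif1a itself up (0.59 ± 0.08, adjusted p = 8.68e-05) and Ndrg1 down (−1.28 ± 0.10, adjusted p = 1.06e-06). Between knockout and floxed cells edgeR called no gene of the 6 lists, and DESeq2 called 1 lower in each of the receptor list, the thrombospondin list and the list of hypoxia-inducible factors' regulators and targets. With the length slope as a covariate edgeR called genes in all 6, namely 2 higher and 3 lower among the receptors, 2 and 1 among thrombospondin relatives, 1 and 2 among the regulators and targets, 0 and 2 among the ligands, 0 and 2 in the EGF list, and 1 and 0 among semaphorins and plexins, beside 4.3% higher and 5.93% lower over all genes.

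**Figure D5:**
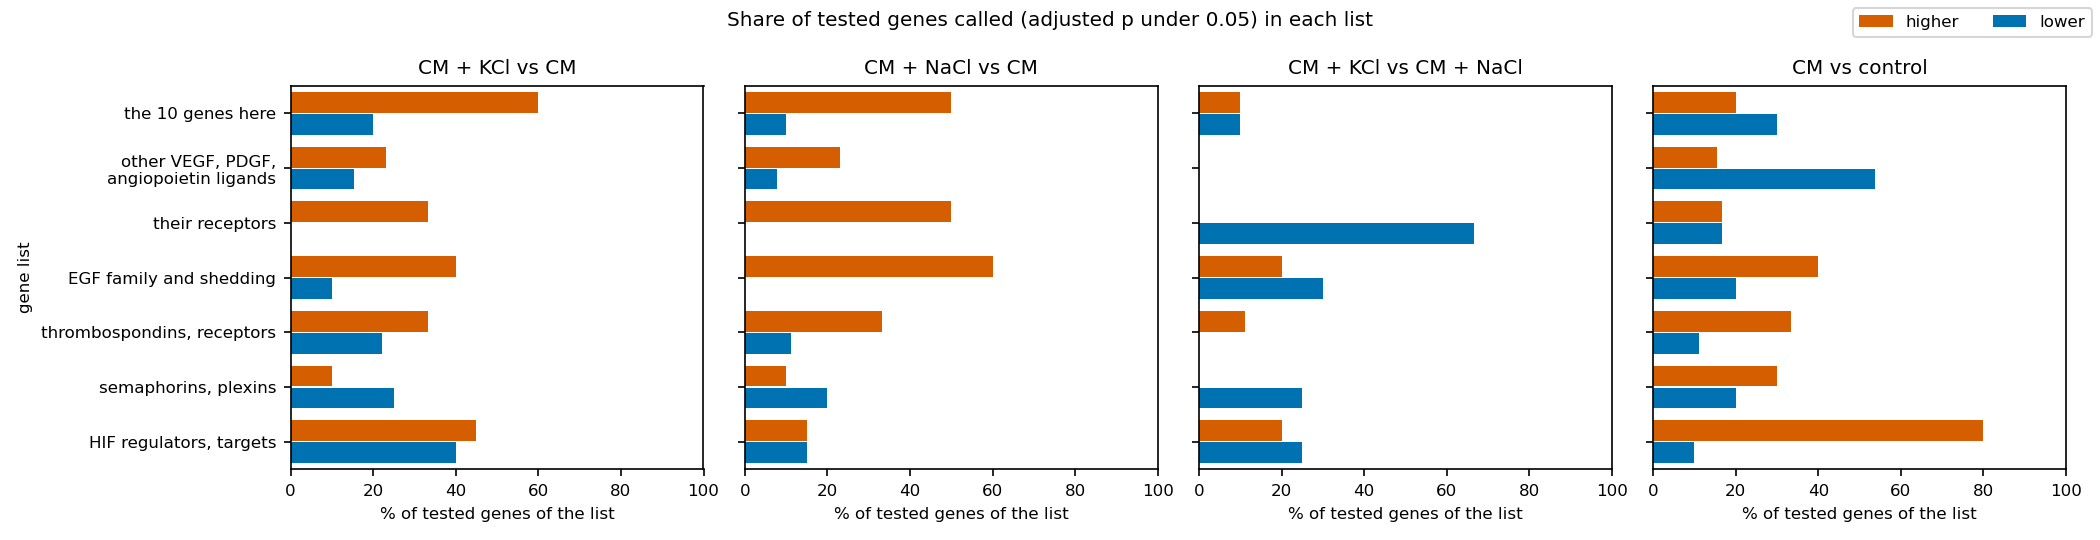
Share of the tested genes of each list that were called higher or lower at an adjusted p under 0.05 (bars, % of the tested genes of the list, from 0; lists of 6 to 20 tested genes; CM, conditioned medium). With KCl against conditioned medium 6 of the 10 genes are higher and 2 lower, and of the 20 regulators and targets of hypoxia-inducible factors (HIF) 16 are higher and 2 lower in conditioned medium against control.

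The genes whose 6 group means lay nearest to each of the 10 were found among 8652 protein-coding genes, by the root-mean-square difference of log2 levels centred on their own average. Nearest to Vegfa were Ppic (0.0985) and Fstl1 (0.105), nearest to Vegfb were Atp6v1a (0.0564) and D10Wsu102e (0.0678), and nearest to Vegfc were Clec4n (0.0904) and Sgms1 (0.108). Pdgfb lay nearest to Bud23 (0.0678) and Hdac1 (0.0737), Nrp1 to Map1lc3a (0.0528) and Hes6 (0.0778), and Nrp2 to Mfap3l (0.0556). Hbegf and Pdgfa had no close neighbour on this scale, their nearest being Tut4 (0.191) and Fam84b (0.194) for Hbegf and Ypel2 (0.159) and Cd320 (0.185) for Pdgfa. Thbs1 was nearest to Cnn1 (0.101) and Myl9 (0.15), which encode calponin and a myosin light chain of contractile cells. Flt1 was below the level set for this comparison. Each value rests on 6 group means that share scaling and libraries.

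Checks of the cells were as follows. The targeted gene Kcnj2 had 19.7, 24.4 and 29.4 CPM in knockout libraries, against 173, 139 and 147 CPM in floxed libraries (log2 fold change −2.64, adjusted p = 0.015). Lyz2, the driver's gene, had 7167 to 8372 CPM in knockout libraries, against 19802 to 24444 CPM in floxed libraries, and the 10 macrophage markers, Lyz2 among them, summed to 13822 to 14952 CPM in knockout libraries, against 28219.6 to 30156 CPM in floxed libraries and 26352 to 30563 CPM in the other groups. Lyz2 made up most of these sums. Between knockout and floxed cells the median log2 fold change of the 10 markers was −0.03, and edgeR called 0 higher and 0 lower. With KCl against conditioned medium, 1 of the 10 rose and 5 fell (median −0.34), beside 26.6% and 27.4% of all genes. With NaCl 0 rose and 2 fell (median −0.12), beside 13.7% and 14.9%. In conditioned medium against control 4 rose and 3 fell (median 0.04), beside 27.2% and 26.4%. Endothelial markers summed to 15.9 to 39.4 CPM over the 17 libraries, with no marker at 0 throughout, lower in conditioned medium (15.9 to 20.5 CPM) than in control cells (33.4 to 39.4 CPM). Platelet and megakaryocyte markers summed to 121.5 to 436 CPM, mostly Pf4 at 89.2 to 409.8 CPM, and neutrophil markers to 7.43 to 30.1 CPM, with Retnlg at 0. Of the melanoma markers Tyr, Dct and Slc45a2 were at 0 in all libraries, and the sum of 67.3 to 237 CPM was mostly Mitf, which macrophages also express. Replicates differed by more than counting error in every group, with chi-square per degree of freedom of 2.08 to 146.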

How the data were processed

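The authors deposited 1 table of raw read counts per Ensembl gene identifier, with 1 column for each of the 17 libraries, and 0 columns were left unmapped. The sources used here give no aligner, counter, genome build or strand of counting, and the submitters' processing notes name DESeq2 1.30.1. Group and replicate came from the treatment, strain and title labels. Symbols and exon lengths came from the GENCODE M21 annotation, and 260 identifiers had no symbol.

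Counts were tested with edgeR 4.0.16 in R 4.3.3 (TMM factors, filterByExpr, robust quasi-likelihood F test, Benjamini-Hochberg adjustment over all genes tested, threshold 0.05). The 4 C57BL/6J groups (11 libraries) were fitted together, the 2 floxed-allele groups (6 libraries) together, and all 17 libraries together for comparisons across strains. Alternatives were DESeq2 1.42.0, other scaling, other filters on low counts, 2 groups alone, a replicate block, the length slope as a covariate and each library left out. The stricter filter asked for 1 CPM in 3 libraries and a mean count of 20. Same-numbered libraries were not paired by the labels, so the numbers were used only in the replicate block. Deviations of C57BL/6J libraries correlated above 0.1 in 4 of 15 same-numbered pairs (at most 0.194) and 0 of 30 differently numbered pairs (at most 0.0977). Among floxed-allele libraries they did so in 1 of 3 and 3 of 6 pairs. The source of the higher values in same-numbered C57BL/6J pairs was not tested. The script was tested on simulated data. Nearest patterns used a pseudocount of 0.5 CPM.

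The 10 genes, the pathway lists and the marker lists were chosen with earlier results of these data known. From each pathway list, up to 3 genes (2 in the other comparisons) with the smallest p and at least 10 CPM in a group could be named.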

Additional observations from a re-analysis of the deposited data

How the results depend on the processing

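Over the 10 genes and 7 comparisons, 950 alternative values were computed. Of these 842 kept their sign and their side of the threshold, 38 lost a call, 32 gained one and 38 changed sign, none of them a value called in the fits reported above. The causes were not tested. With only the 2 compared groups in the fit, 8 of the 10 genes were called for conditioned medium against control (9259 genes in the table), 0 for KCl against NaCl (8 genes in the table) and 0 for floxed cells against conditioned medium (411 genes in the table). The table held 6245 calls for NaCl against conditioned medium and 1218 for KCl against floxed cells, and Vegfb was at 0.0015 for KCl against NaCl. With the length slope as a covariate, calls in the table numbered 4390 for KCl against conditioned medium, 143 for KCl against NaCl (0 of the 10 genes), 1307 for knockout against floxed (2 of the 10 genes) and 6531 for KCl against floxed cells. For floxed cells against conditioned medium, 7 of the 10 genes were called with that covariate, beside 10.5% of all genes higher and 9.44% lower. In that fit signs changed for Nrp2 with KCl against conditioned medium (0.33), for Vegfa (0.033), Vegfb (0.83), Hbegf (0.83), Pdgfb (0.032) and Nrp1 (−0.44) with KCl against NaCl, for Nrp2 in knockout against floxed (0.14) and for Nrp1 in floxed cells against conditioned medium (−0.12). Total-count scaling changed the sign of Vegfb (−0.019) and Pdgfb (−0.21) in conditioned medium against control, of Vegfc (−0.082) and Thbs1 (−0.045) in KCl against NaCl, and of Vegfa (−0.10) and Nrp2 (−0.059) in floxed cells against conditioned medium. Vegfb in KCl against NaCl was 0.011 with DESeq2 and 0.017 with RLE factors.

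Knockout against floxed cells gave 1 of the 10 genes and 177 genes with DESeq2, 12 genes with no filter on low counts and 0 genes with the replicate block. The replicate block left 8 of the 10 genes called for KCl against conditioned medium (8166 genes in the table) and 7 for NaCl against conditioned medium (4712 genes in the table), and put Flt1 at 0.096 in the NaCl comparison. Beside Vegfa in KCl against floxed cells, it ended no call on the 10 genes. Calls gained beside those named above were Nrp1 in NaCl against conditioned medium with 2 groups (0.25, adjusted p = 0.0121) and in KCl against NaCl without KCl library 3 (1.26, 0.0132). In floxed cells against conditioned medium, Vegfb (0.69), Vegfc (0.51) and Nrp2 (0.40) were called with the slope covariate, and Vegfc also with DESeq2 (0.40) and without floxed library 2 (0.50). In KCl against floxed cells, Vegfb was called with that covariate (0.50) and without KCl library 2 (0.69), and Nrp1 without KCl library 3 (1.04) or floxed library 2 (1.11).

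With each library left out in turn, genes called in the table ranged over 2224 to 3465 for NaCl against conditioned medium, 960 to 6989 for KCl against NaCl, 0 to 14 for knockout against floxed and 1081 to 5589 for floxed cells against conditioned medium. Of the 10 genes, 3 to 6 were called for NaCl against conditioned medium and 1 to 3 for KCl against NaCl. Log2 fold changes that crossed 0 ranged over −0.25 to 0.18 for Flt1 with NaCl against conditioned medium. For KCl against NaCl they ranged over −0.29 to 0.23 for Vegfb, −0.0098 to 0.16 for Vegfc, −0.32 to 0.17 for Hbegf and −0.0030 to 0.21 for Thbs1. For knockout against floxed they ranged over −0.039 to 0.28 for Vegfb, −0.42 to 0.20 for Nrp1 and −0.22 to 0.21 for Nrp2. For floxed cells against conditioned medium they ranged over −0.14 to 0.16 for Vegfa, −0.25 to 0.14 for Flt1 and −0.18 to 0.26 for Nrp2. For KCl against floxed cells they ranged over −0.35 to 0.0083 for Flt1 and −0.31 to 0.11 for Nrp2. Where NaCl keeps 1 library, the fit takes its spread from the other groups.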
